A study of Danio rerio with 16 samples.

Results

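The comparison described here was that of triploid with diploid testis in zebrafish that were not exposed to estrogen. It rested on 8 of the 16 libraries of the series, 4 titled as triploid control and 4 as diploid control, chosen by their titles. All fish were of the AB strain, a common laboratory strain of zebrafish, and RNA came from male gonads. The diploid controls were unexposed diploid AB fish and the triploid controls were unexposed triploid AB fish. The series also had diploid and triploid fish exposed to the synthetic estrogen 17α-ethinylestradiol (EE2). Of those libraries, 7 entered the main fit beside the 8 controls, so the p-values also draw on their spread. The same 7, fitted apart, gave a separate measurement of ploidy. The sources used here state neither the age of the fish, nor how triploidy was induced, nor how many fish stand behind a library. The p-values therefore cover the spread among these libraries, which may be technical. The read pairs of 32520 genes were given, of which 23007 were high enough to be tested.

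Triploid animals carry an additional set of chromosomes in every cell. At meiosis the chromosomes of such a set have no regular partner, and triploid fish are commonly sterile. In the testis, germ cells divide by mitosis as spermatogonia, pass through meiosis as spermatocytes and mature as spermatids, while Sertoli cells nurse them within the tubule and Leydig cells make androgens between the tubules. Every value below is relative to the total of its library, so a change in the RNA content of the whole cell would not be seen. In RNA from whole testis, fewer cells of a type and less RNA per cell cannot be told apart.

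The libraries held 7659779 to 13959219 read pairs in diploid and 9556588 to 11628178 in triploid controls. Germ cell markers were high in all 8, with ddx4, an RNA helicase of germ cells, at 822 to 1112 CPM. CPM is the level of a gene relative to the TMM-normalised total of its library. The oocyte marker figla was at 0 in every diploid control and at most 0.44 CPM in triploids. The oocyte markers zp3b, gdf9 and bmp15 were detected in all 8, at 3.50 to 7.85, 0.917 to 3.06 and 3.06 to 6.49 CPM. The 4 triploid libraries resembled each other closely, with Spearman correlations of 0.974 to 0.980 over genes, while those among diploids ran from 0.937 to 0.979. Diploid control 1 stood apart. It had 6.86% of read pairs on mitochondrially encoded genes (95% Wilson interval 6.85% to 6.88%, counting error only), against 1.75% to 2.96% in the other 3 diploid and 2.13% to 2.67% in the triploid controls. Diploid control 4 stood apart in genes of the exocrine pancreas. Some values that change without either library are given beside the results. For some other genes only the number of omissions in which a call was lost is given. A call printed without such a number may also have been lost in omissions. Of the 66 called named genes, 27 kept their call in all 8. Neither depth nor the number of genes detected, the mitochondrial share, the share of the signal recognition particle RNA rn7sl1 or that of the 100 highest genes passed a test between the groups by exact two-sided permutation tests, with adjusted p from 0.43 to 0.97. With 4 libraries against 4, the smallest p such a test can give is 0.0286 before adjustment, so after adjustment over the 5 measures a lone measure could not have passed 0.05. The unadjusted p was lowest for rn7sl1, at 0.0857, with 8.00% ± 3.60 of read pairs in diploid and 5.44% ± 0.658 in triploid controls (SD, n = 4 each). Diploid control 1 was at 13.3%, the other diploid controls at 5.23% to 6.96% and the triploid controls at 5.01% to 6.41%. Over omissions of a library the difference ranged from -3.48 to -0.80 percentage points.

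Most of the called genes were lower in triploid testis. The deepest falls were of genes with a clone name or no symbol, of pimr genes and of a few others such as KLHL10 and nkd3l. Of the 229 lower genes with a gene symbol outside pimr, 89 fell at least 2-fold and their median log2 change was -0.89. The 132 higher genes, among them 9 of the mitotic spindle, rose modestly, with a median of 0.66. The test was edgeR's quasi-likelihood test on 15 libraries, the 8 controls and 7 of EE2, with Benjamini-Hochberg adjustment. By it, 630 genes were called changed at an adjusted p under 0.05, which is 2.74% of the genes tested. Of these, 132 were higher (0.574%) and 498 lower (2.16%). Without triploid control 1 the total was 350, without triploid control 3 it was 387, without diploid control 4 it was 405, without diploid control 3 it was 415 and without diploid control 1 it was 639. The higher genes then numbered 26, 43, 50, 49 and 169, and they numbered 72 and 73 without triploid control 2 or 4. With only the 8 control libraries fitted, 418 genes were called, 75 higher and 343 lower. The median log2 change of all genes tested was -0.04. Rises were small, since 16 of the higher genes changed at least 2-fold (0.0695% of those tested), while 336 of the lower genes did so (1.46%). Groups did not overlap for 614 of the 630 called genes and for 11.9% of all genes tested.

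**Figure D1:**
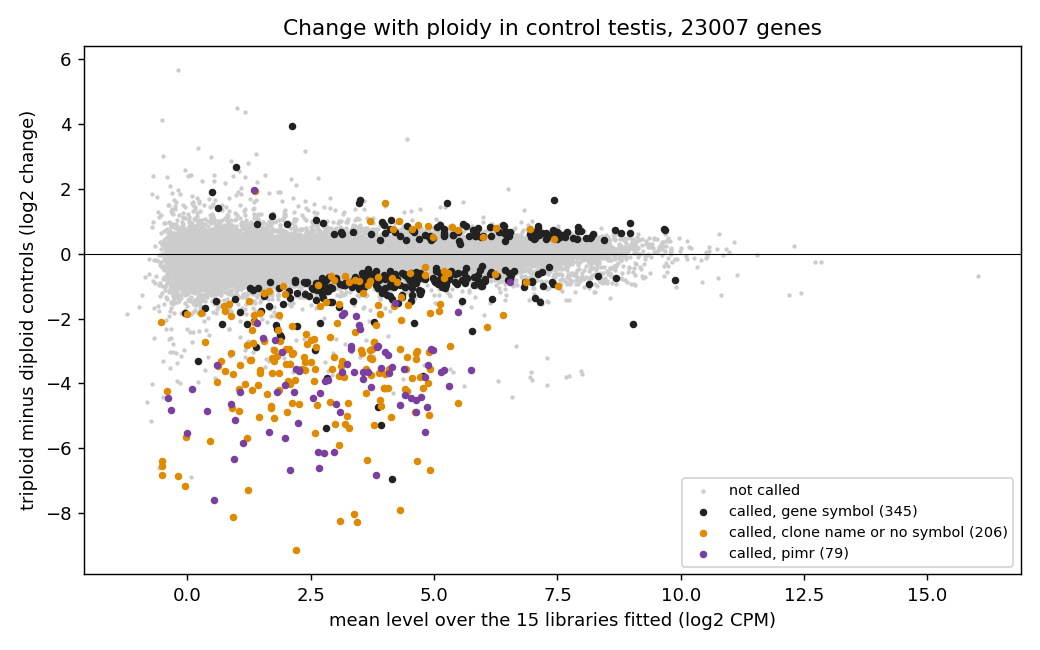
Log2 change of triploid over diploid controls against the mean level over 15 libraries in log2 CPM for the 23007 genes tested, with called genes in colour by kind of name. The deep falls are mostly genes with clone names, genes without a symbol and pimr genes, while 7 of the 229 lower genes with a gene symbol fell at least 8-fold.

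The deepest falls were largely of genes that have no gene symbol of their own. A change of at least 8-fold lower was called for 179 genes (0.778% of those tested). With the 8 called genes that were at 0 in all triploid controls set to a floor of 3 counts per library, the number was 173. Among the 179 were 61 genes of the pimr family, named for their likeness to Pim kinases, 88 genes with the name of a sequencing clone, 23 with no symbol and 7 with a gene symbol. Of the genes with a clone name, 146 of 3799 tested were called lower (3.84%) and 7 higher (0.184%). Of those with a gene symbol outside pimr, 229 of 17523 were called lower (1.31%) and 116 higher (0.662%). The genes without pimr that fell at least 8-fold numbered 118. Their median was 8.47 CPM in diploid controls and 0.411 CPM in triploid controls, and 73 of them stayed below 1 CPM in every triploid control. Their median exon length was 1056.5 bases, against 2288 bases for all genes tested outside pimr. Only 17.8% of them had a gene class in the reference used, so no split by class was made.

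The lower genes lay on many chromosomes, and some lay beside each other. Stretches of at least 3 lower genes outside pimr, each within 100 kb of the next, were looked for after the values had been seen. There were 19 such stretches on 13 chromosomes, with 68 of the 420 lower genes outside pimr, and 64 of these 68 had a clone name or no symbol. The stretch with the most lower genes was on chromosome 10 at 6613279 to 6753115 (GRCz11), where 8 genes named si:ch211-57m13 were lower among 13 genes tested. The gene si:ch211-57m13.8 was at 11.2, 24.6, 17.9 and 28 CPM in the diploid and 0.792, 0.78, 1.16 and 0.458 CPM in the triploid controls. No triploid value came near a diploid one. It fell by 4.69 ± 0.63 on the log2 scale (SE, adjusted p = 5.0e-04). The 5 other genes tested in the stretch had log2 changes of -0.56 to -0.03 and were not called. On chromosome 2, at 33692165 to 33753382, all 6 genes tested were lower, from -2.76 to -4.84 on the log2 scale. There si:dkey-31m5.2 was at 33.3, 28, 13.5 and 20.6 CPM in diploids and at 0.264, 1.04, 1.58 and 1.28 CPM in triploids. Its neighbour si:dkey-31m5.4 lost its call in 5 of 8 omissions of a library. Outside pimr, 10 of the 118 genes at least 8-fold lower (8.47%) lay within 100 kb of a lower pimr gene, against 1.18% of all genes tested. Near-identical copies may share reads, and per the file headers reads with several alignments were not counted, so the level of a gene in such a run is uncertain.

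The 12 largest falls among genes with a symbol, outside pimr, tssk6 and amh, came mainly from 3 small families, whose copies may share reads. The first was KLHL10, a kelch protein that recruits substrates to the Cul3 ubiquitin ligase and is needed for sperm formation in mice. KLHL10 of ENSDARG00000112170 (chromosome 17, 7522777 to 7531632, GRCz11) was at 29, 8.16, 17.5 and 24.4 CPM in the diploid and at 0, 0.433, 0.948 and 0.642 CPM in the triploid controls. The groups were far apart (log2 -5.29 ± 0.86 SE, adjusted p = 0.0028). Its neighbour ENSDARG00000115489 went from 7.98 ± 5.09 to 0.182 ± 0.0991 CPM (SD, n = 4 each; log2 -5.39, adjusted p = 0.0080). Another KLHL10 gene on the same chromosome, ENSDARG00000005814, kept more of its RNA, at 57.9 to 72.7 CPM in diploids and 16.8 to 31.1 CPM in triploids (log2 -1.45 ± 0.28 SE, adjusted p = 0.010). These were the lower members among 20 genes of a list of kelch-like adaptors and ubiquitin ligase parts, in which 0 were higher and the median log2 change was 0.13. The share of all genes tested that were called lower was 2.16%. The wider stem klhl had 4 of 40 genes called, beside 2.74% of all genes, the fourth being klhl24b at -0.82. This stem was kept for having at least 3 called genes, and the other 3 of its 4 are KLHL10 genes.

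The naked cuticle genes nkd3 and nkd3l belong to a family of Wnt antagonists that bind Dishevelled. The gene nkd3l (chromosome 19, 33368152 to 33370271) was at 19.6, 17.8, 17.2 and 21.6 CPM in diploids and at 0.352, 0.0866, 0.105 and 2.29 CPM in triploids. All diploid values were above 17 CPM, and triploid control 4 was the highest of its group. The log2 change was -4.72 ± 0.63 (SE, adjusted p = 4.1e-04) and -6.61 without triploid control 4 (adjusted p = 1.0e-04). A pair of nkd3 genes on the same chromosome fell by log2 3.83 and 2.56 (adjusted p = 9.9e-05 and 8.2e-04). These 3 were the called members of the Wnt list, in which 76 genes were tested, 0 were higher and the median was -0.21. All 3 are of this naked cuticle family, and 2.16% of all genes tested were called lower and 0.574% higher.

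NAMPT makes nicotinamide mononucleotide, a step of NAD salvage. The NAMPT gene ENSDARG00000076694 (chromosome 18, 33788340 to 33795749) was at 40.1, 49.8, 30 and 41.2 CPM in diploid and at 3.69, 2.51, 3.16 and 2.48 CPM in triploid controls. The spread within each group was small beside the distance between them (log2 -3.76 ± 0.29 SE, adjusted p = 1.3e-05). On chromosome 11 nampt4.1 and nampt4.2 fell by log2 2.87 and 2.51 (adjusted p = 0.0051 and 0.0028), and nampt3.2, named after its values were seen, fell by 2.11 (adjusted p = 1.7e-04). The remaining large falls were a U1 spliceosomal RNA gene on chromosome 9 (log2 -2.97, adjusted p = 0.0073), whose many copies make its level uncertain, rasd2b, a small GTPase (-2.33, adjusted p = 0.0031), and id1 and etv5b, described with their pathways. All 12 kept their call in each of the 8 omissions of a library.

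**Figure D2:**
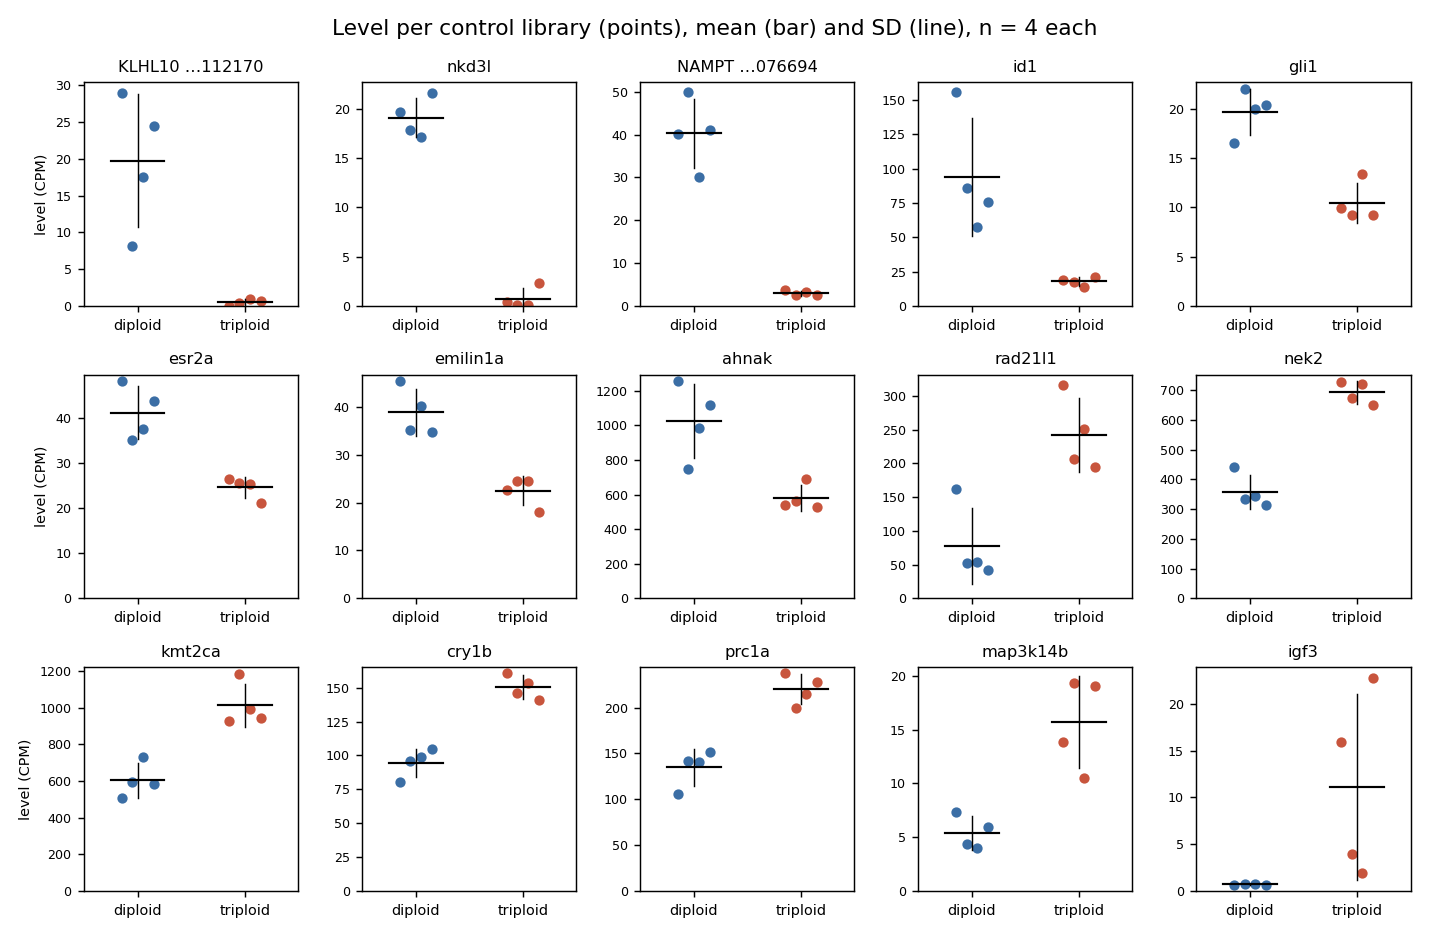
Level in CPM of 15 genes in each control library (points), with the group mean (bar) and SD (line), n = 4 each. In triploids KLHL10 of ENSDARG00000112170 stays below 1 CPM, nkd3l reaches 2.29 CPM and the NAMPT gene shown 3.69 CPM. The 4 triploid values of igf3 range from 1.9 to 22.8 CPM.

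Of 48 genes of the mitotic spindle and its checkpoint, 9 rose in triploid testis, 0 fell and 39 were not called, against 0.574% of all genes called higher, and their median log2 change was 0.35 against -0.04 for all genes. The list as such was not tested. For 26 of the 48 every triploid library lay above every diploid library, as it did for 5.19% of all genes tested, and the reverse held for 6.67%. The gene prc1a, which bundles microtubules of the central spindle, was at 106, 141, 140 and 152 CPM in diploid and at 237, 200, 215 and 228 CPM in triploid controls. All triploid values were higher than all diploid values (log2 0.71 ± 0.13 SE, adjusted p = 0.0049). The kinesin kif23, which acts at the central spindle in cytokinesis, was at 118, 179, 171 and 167 CPM in diploids and at 302, 251, 237 and 228 CPM in triploids (log2 0.68 ± 0.14 SE, adjusted p = 0.014). That call was lost without triploid control 1 (adjusted p = 0.076). The minus-end kinesin kifc1 went from 193 ± 18.2 to 271 ± 17.6 CPM (SD, n = 4 each; log2 0.49, adjusted p = 0.014), a call lost in 3 of 8 omissions. The others, beyond the 3 of smallest p, were the checkpoint kinase bub1bb (0.72), the kinases plk1 (0.66) and aurka (0.61), the cyclin ccnb3 (0.65), the checkpoint target cdc20 (0.59) and the kinesin kif18a (0.52). The number called was 4 without diploid control 4 or triploid control 3, 5 without diploid control 3 or triploid control 2, 1 without triploid control 1, and 0 with all 16 libraries. Over the alternatives it ranged from 0 to 16, while the median stayed between 0.30 and 0.37 in every one.

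Some genes outside that list were named by other parts of the naming rule or after their values were seen. The centrosome kinase nek2 was at 442, 335, 343 and 315 CPM in diploids and at 728, 673, 721 and 650 CPM in triploids, without overlap (log2 0.95 ± 0.20 SE, adjusted p = 0.018; lost in 5 of 8 omissions). Name stems were kept for having at least 3 called genes, so their counts are a description only, beside 0.574% of all genes called higher. The stem cep, of centrosomal proteins, had 5 of 36 genes higher and 0 lower, namely cep57, CEP55, cep126, cep85 and cep76, with log2 changes from 0.40 to 0.64. Each of these calls was lost in at least 1 of 8 omissions, and those of CEP55, cep126 and cep85 in 7. The stem kif, of kinesins, had 3 of 45 higher, and the stem wdr 3 of 53. The spindle pole gene aspm rose by 0.65 (adjusted p = 0.028). Among cohesins, the rings that hold sister chromatids, 2 of 24 were higher and 23 of 24 had a log2 change above 0, while 55.1% of all genes tested had one below 0. The smaller rise was that of stag1b (log2 0.42, adjusted p = 0.024, lost in 6 of 8 omissions). The other was rad21l1, a subunit used in meiosis, at 162, 52.1, 53.5 and 42 CPM in diploids and at 316, 206, 251 and 195 CPM in triploids. Diploid control 1 was the highest of its group for rad21l1. It rose by 1.65 ± 0.37 on the log2 scale (SE, adjusted p = 0.030). The call was lost in 5 omissions, and without diploid control 1 the adjusted p was 1.6e-04. For many other cohesins diploid control 1 was the lowest of its group. For smc3 it was at 691 CPM against 879 to 946, and for stag3 at 123 against 259 to 272. For esco2 it was the highest, at 454 CPM against 315 to 355. The median of the cohesin list lay between 0.09 and 0.25 over the alternatives, with 0 to 2 genes called.

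Chromatin and RNA regulators were among the called genes with the highest levels. The histone methyltransferase kmt2ca was at 504, 595, 731 and 582 CPM in diploids and at 929, 1186, 992 and 946 CPM in triploids. Its groups were clearly apart (log2 0.75 ± 0.15 SE, adjusted p = 0.011), and the call held in all 8 omissions. The helicase setx, which resolves RNA and DNA hybrids, rose by 0.66 (adjusted p = 0.032) and supt16h, a subunit of the histone chaperone FACT, by 0.74 (adjusted p = 0.038), with calls lost in 6 and 5 omissions. The clock repressor cry1b was at 80.2, 95.6, 98.7 and 104 CPM in diploids and at 161, 146, 153 and 141 CPM in triploids. All 4 triploid values exceeded the diploid ones (log2 0.66 ± 0.12 SE, adjusted p = 0.0042). The gene cry1b was the only 1 of 48 clock genes called, beside 2.74% of all genes tested.

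The largest rise was that of igf3, a gonadal insulin-like growth factor of fish. It was at 0.666, 0.785, 0.751 and 0.641 CPM in diploids and at 15.9, 3.9, 1.9 and 22.8 CPM in triploids. Every triploid library was higher, but triploids varied widely among themselves (log2 3.95 ± 0.87 SE, adjusted p = 0.025), and the call was lost in 6 of 8 omissions. The kinase map3k14b, which activates NF-κB signalling, was at 7.32, 4.32, 3.97 and 5.98 CPM in diploids and at 13.9, 19.4, 10.5 and 19.1 CPM in triploids (log2 1.56 ± 0.29 SE, adjusted p = 0.0074). The cytoskeletal scaffold pdlim5a was at 4.83, 4.24, 6 and 4.27 CPM in diploids and at 16, 14.2, 6.53 and 23.7 CPM in triploids (log2 1.65 ± 0.32 SE, adjusted p = 0.010). Both kept their call in all 8 omissions. The other 7 of the 12 largest rises were the serotonin receptor htr7 (1.16), the chitin receptor homolog fibcd1b (1.05), the vesicle SNARE vamp1a (1.05), the Golgi GTPase rab6ba (0.98), the LIM protein crip3 (0.95), the potassium channel kcnh4a (0.93) and the dioxygenase-like hpdl (0.92). Their calls were lost in 7, 8, 5, 2, 4, 6 and 8 of 8 omissions.

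Germ cell lists had few called genes. Of all genes tested, 2.74% were called, 2.16% lower and 0.574% higher. Lists of these sizes hold few called genes at that share, so the counts do not set germ cell genes apart. Among genes of synapsis and recombination, 0 of 33 were called by edgeR and 25 of 33 had a log2 change above 0, with a median of 0.17. The synaptonemal complex gene sycp1 was at 1759 to 2433 CPM in diploids and 2068 to 2329 CPM in triploids (log2 0.14, adjusted p = 0.76), so the groups overlapped. The list of spermatids and the flagellar axoneme had 0 of 79 called with a median of 0.19, and the piRNA pathway 0 of 21 with a median of 0.03. DNA replication (0 of 53, median 0.07) and sperm-egg fusion (0 of 6, median 0.34) had none called either. The helicase ddx4 did not pass (log2 0.10 ± 0.11 SE, adjusted p = 0.68). Undifferentiated spermatogonia had 1 of 27 lower, etv5b, an Ets factor that in mice sustains spermatogonial stem cells. It was at 9.65, 5.57, 7.29 and 5.2 CPM in diploids and at 0.44, 1.56, 2.11 and 1.74 CPM in triploids, without overlap (log2 -2.23 ± 0.40 SE, adjusted p = 0.0056). The mean log2 level of that list did not overlap between the groups, at 0.11 to 0.18 in diploids and -0.22 to -0.07 in triploids on a log2 scale centred on the 8 libraries. The spindle list was apart as well, and how many other lists were is not given here. Members of the highest level changed little, with piwil1 at 0.15, dazl at 0.03 and sall4 at -0.03. Testis kinases and chromatin packing genes had nek2 higher and the linker histone h1l1 lower (log2 -1.38, adjusted p = 0.040, lost in 6 of 8 omissions) of 40 tested.

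Sertoli cell genes were lower for 4 of 34, higher for igf3 alone and not called for 29, with a median of -0.54. Over all genes tested 2.16% were called lower, and the counts of this list and of those that follow are to be read beside that share. They were aldh1a2, cldn11a, gsdf and fshr. The Sertoli factor gsdf was at 280, 332, 411 and 447 CPM in diploids and 231, 260, 214 and 212 CPM in triploids (log2 -0.68 ± 0.15 SE, adjusted p = 0.020). The receptor of follicle-stimulating hormone, fshr, was at 9.03 to 17 CPM in diploids and 5.06 to 7.34 CPM in triploids (log2 -0.96, adjusted p = 0.038). Neither gene overlapped between groups, yet the calls were lost in 5 and 7 of 8 omissions, and 0 Sertoli genes were called lower without diploid control 3 or 4 or triploid control 1 or 3. The number was 1 without diploid control 1 or triploid control 2 or 4, and 6 without diploid control 2. The sex determination factor dmrt1 had a log2 change of -0.31 (adjusted p = 0.32) and sox9a of -0.44 (adjusted p = 0.31).

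Steroid synthesis genes were lower for 3 of 39, against 2.16% of all genes, with a median of -0.29. The 17-hydroxylase cyp17a2 was at 48.9, 31.8, 52.4 and 47.1 CPM in diploids and at 8.18, 21.5, 23.2 and 12.4 CPM in triploids (log2 -1.47 ± 0.31 SE, adjusted p = 0.019). No triploid value reached the lowest diploid one, and the call was lost without diploid control 3 or triploid control 4 (adjusted p = 0.061 and 0.067). The electron carrier fdx1b (log2 -1.53, adjusted p = 0.020) and the side-chain cleavage gene CYP11A1 of ENSDARG00000092696 (-0.98, adjusted p = 0.035) were lost in 4 and 6 omissions, and both were highest in diploid control 1, at 72.7 and 50.1 CPM. For CYP11A1 the groups overlapped, since triploid control 2, at 22 CPM, lay above diploid control 2, at 21.2 CPM. The main androgen enzyme cyp17a1 (log2 -0.35, adjusted p = 0.56), the cholesterol carrier star (-1.49, adjusted p = 0.074), the 11β-hydroxylase cyp11c1 (-0.82, adjusted p = 0.16) and the Leydig hormone insl3 (-0.42, adjusted p = 0.78) did not pass. For star the value without diploid control 1 was -0.88, and without diploid control 2 it passed at -1.71 (adjusted p = 0.040). For insl3 the sign of the change was not the same in every omission of a library. Aromatase, cyp19a1a, was too low to be tested. Among 32 receptor genes fshr and the estrogen receptor esr2a were lower. The latter was at 48.1, 35.1, 37.5 and 43.6 CPM in diploids and at 26.4, 25.5, 25.4 and 21.1 CPM in triploids, with the groups apart (log2 -0.74 ± 0.13 SE, adjusted p = 0.0032), and kept its call in all omissions. The androgen receptor ar (-0.34, adjusted p = 0.27) and lhcgr, the receptor of luteinizing hormone (-0.76, adjusted p = 0.28), did not pass.

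Signalling genes that were called were lower in most lists. In the TGF-beta superfamily 4 of 66 were lower and 0 higher, against 2.16% and 0.574% of all genes. The BMP target id1, an inhibitor of DNA binding, was at 156, 85.5, 57.7 and 75.8 CPM in diploids and at 18.7, 17.6, 13.7 and 21.1 CPM in triploids. Its lowest diploid value was well above its highest triploid value (log2 -2.39 ± 0.39 SE, adjusted p = 0.0029). Its relative id3 fell by 1.28, the signal transducer smad1 by 0.76 (adjusted p = 0.015) and the co-receptor tgfbr3 by 0.75 (adjusted p = 0.018). For smad1 the diploids were at 7.66 to 8.12 CPM and the triploids at 4.33 to 4.95 CPM. The number lower was 2 without triploid control 1. The Hedgehog transcription factor gli1, itself a transcriptional target of the pathway, was at 16.5, 22, 19.9 and 20.4 CPM in diploids and at 9.94, 9.18, 13.4 and 9.26 CPM in triploids (log2 -0.92 ± 0.15 SE, adjusted p = 0.0029). No triploid value reached the lowest diploid one, and the call was kept in all 8 omissions.

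Among growth factors and their receptors, 58 tested, fgfr4 (log2 -1.10, adjusted p = 0.013) and the Fgf feedback inhibitor spry2 (-0.73, adjusted p = 0.016) were lower and igf3 higher. Retinoic acid genes were lower for 3 of 36, against 2.16% of all genes, namely the synthesising enzyme aldh1a2 (-1.47, adjusted p = 0.046), the retinal reductase dhrs3a (-1.62, adjusted p = 0.017) and the carotenoid oxygenase bco2a (-0.75, adjusted p = 0.0059). Of these, bco2a kept its call in every omission, at 23.1, 25.7, 23.4 and 32 CPM in diploids and 14.1, 15, 16.5 and 16.5 CPM in triploids. In the list of prokineticins and chemokines 1 of 21 was lower, anos1a, the gene of anosmin (-1.38, adjusted p = 0.023). In the Notch list 1 of 38 was higher, the glycosyltransferase rfng (0.67, adjusted p = 0.014; lost without triploid control 1, adjusted p = 0.071). The immediate early gene junba was lower (-1.63, adjusted p = 0.011) as the only 1 of 63 stress genes called, and tp53inp1 was the only 1 of 38 p53 and DNA damage genes called, at 0.55 (adjusted p = 0.042).

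Matrix and contractile genes had some lower members. Of 92 matrix genes 5 were lower and 0 higher, against 2.16% and 0.574% of all genes, and their median of -0.04 was that of all genes. The membrane-bound metalloproteinase mmp14a was at 41.1, 27.6, 42.8 and 47 CPM in diploids and at 23.8, 24, 22.5 and 22.7 CPM in triploids (log2 -0.77 ± 0.14 SE, adjusted p = 0.0081). Its paralog mmp14b fell by 0.59 (adjusted p = 0.012) and the elastic fibre protein emilin1a by 0.79 (adjusted p = 0.0051), and these 3 kept their calls in all omissions. The basement membrane chain lama5 and the spondin spon1b, at -0.50 and -0.67, lost theirs in 7. The number lower was 7 without diploid control 1, 5 with it and 3 without any other single control library, and it was 1 with only the 8 control libraries and 0 with all 16. Smooth muscle and peritubular genes were lower for acta2 (-0.88, adjusted p = 0.038) and actn1 (-0.80, adjusted p = 0.047) of 34, against 2.16% of all genes, with a median of -0.47 and 2 of 34 above 0. Both calls were lost in 5 omissions. The mean log2 level of that list was highest in diploid control 1, at 0.54 on the centred log2 scale, against -0.06 to 0.25 in the other diploids and -0.35 to -0.10 in triploids. The large scaffold protein ahnak, of high level, was at 1255, 750, 985 and 1116 CPM in diploids and at 537, 564, 688 and 529 CPM in triploids (log2 -0.82 ± 0.17 SE, adjusted p = 0.015; lost in 3 omissions).

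**Figure D3:**
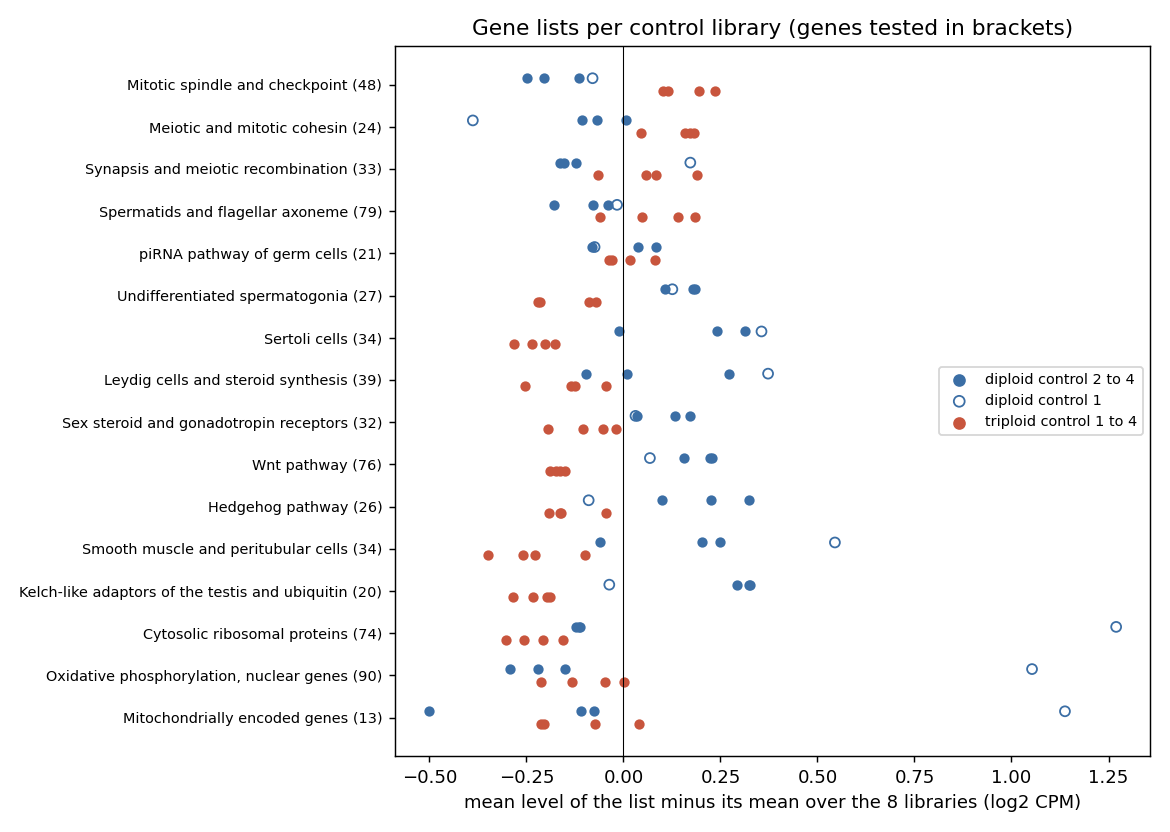
Mean log2 CPM of each gene list in each control library, centred on its mean over the 8 libraries, with diploid control 1 as an open circle. Spindle genes are above their mean in all triploid and below it in all diploid libraries, and for ribosomal protein, oxidative phosphorylation and mitochondrial genes diploid control 1 lies at 1.05 to 1.27, apart from the other 7.

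Lists of other cell types and of housekeeping moved with single libraries. Cytosolic ribosomal proteins had a median of -0.67 with 0 of 74 called, and the median was -0.10 without diploid control 1. Nuclear genes of oxidative phosphorylation went from -0.37 to 0.12 without it, mitochondrially encoded genes from -0.38 to 0.15, and the proteasome from -0.14 to 0.11. In those lists ndufv1, a subunit of complex I, was the only gene called (log2 0.46, adjusted p = 0.035, lost in 6 omissions). Exocrine pancreas and gut genes had a median of -3.33 with 0 of 29 called, and 0.10 without diploid control 4, in which the trypsin gene prss1 was at 1619 CPM and in the other control libraries between 9.01 and 63.6 CPM. Skeletal muscle (1 of 37, myhz1.3 at -0.88) had a median of 0.35, and -0.07 without triploid control 2. The liver list had 1 of 55 called, c4 of the complement system, at 167 to 285 CPM in diploids and 83.2 to 136 CPM in triploids (adjusted p = 0.022), with a median of 0.30, and 1.26 without diploid control 4. The part of these cells in other results was not tested.

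Endothelium (0 of 43 called, median -0.28), macrophages and neutrophils (0 of 39, -0.20), erythrocytes (0 of 22, 0.08) and oocytes (0 of 23, -0.01) had no called member. Over the alternatives 0 to 2 genes were called for erythrocytes and for macrophages and neutrophils, and 0 to 1 for endothelium and for oocytes. Diploid EE2 1, whose spread enters the main fit, was high in many erythrocyte genes. There hbaa1 was at 415 CPM, against 2.00 to 9.97 CPM in diploid controls. The remaining lists had 1 called member each. They were il7r of lymphocytes (log2 -1.37, of 32 tested), mgll of adipose tissue (-0.81, of 29), vamp1a among nerve and glia genes (of 34) and the fatty acid elongase elovl5 of lipid synthesis (1.55, of 45). Calls of il7r, mgll and elovl5 were lost in 7, 8 and 6 omissions, and the groups overlapped for il7r and elovl5.

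By chromosome, the share of genes called ran from 0.604% on chromosome 4, with 8 of 1324, to 5.07% on chromosome 20, and was 0% for the 27 genes of the mitochondrial genome that were tested. Without pimr genes the range over nuclear chromosomes was 0.529% to 3.76%. Chromosome 4 of zebrafish has a long arm rich in repeats and is linked to sex in wild strains. The median log2 change lay between -0.09 and -0.01 on every nuclear chromosome. Chromosome 8 had the most higher genes outside pimr, 15 of 941, which is 1.59%.

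The ploidy contrast was then measured in the EE2 libraries, which are other libraries of the same series. Whether they share families of fish, an induction of triploidy or a batch with the controls is not stated in the labels. The 8 control libraries fitted alone called 418 of 21757 genes (1.92%), and 414 of these were tested in the 7 EE2 libraries, 4 diploid and 3 triploid. Of the 414, 409 had a change in the same direction there and 247 were called there in the same direction, while 4.14% of all genes tested in the EE2 libraries were called, 3.53% lower and 0.604% higher. Outside pimr, 169 of 264 lower genes (64%) were called, and 11 of 74 higher genes (14.9%), although 71 of those 74 had the same direction. Their median log2 change was 0.69 in controls and 0.56 under EE2, and that of the lower genes -2.39 and -2.24. With the titled outlier among the EE2 libraries, 203 were called in the same direction. In the fit of 15 libraries both contrasts share the filter, scaling and spread, so it is no separate measurement. In it, 114 of the 118 genes outside pimr that were at least 8-fold lower in controls were also called under EE2. Of all 22883 genes tested outside pimr, 1258 were called under EE2 in that fit. The 118 had medians of 12.7 CPM in diploid and 0.882 CPM in triploid EE2 libraries. NAMPT of ENSDARG00000076694 (log2 -4.02), nkd3l (-5.29), KLHL10 of ENSDARG00000112170 (-4.14), esr2a (-0.82), gli1 (-0.77), cry1b (0.87) and kmt2ca (0.76) were called there as well, while id1 (-1.30, adjusted p = 0.084), etv5b (-0.58, adjusted p = 0.48), igf3 (1.64, adjusted p = 0.32) and rad21l1 (0.54, adjusted p = 0.51) were not. The test of the interaction of ploidy with EE2 called 0 of 23007 genes by edgeR, with 1223 at an unadjusted p under 0.05. The largest gap among the named genes was that of pdlim5a, higher in control triploids and lower under EE2 at -1.29 (adjusted p = 0.040), with an adjusted p of 0.19 for the interaction.

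**Figure D4:**
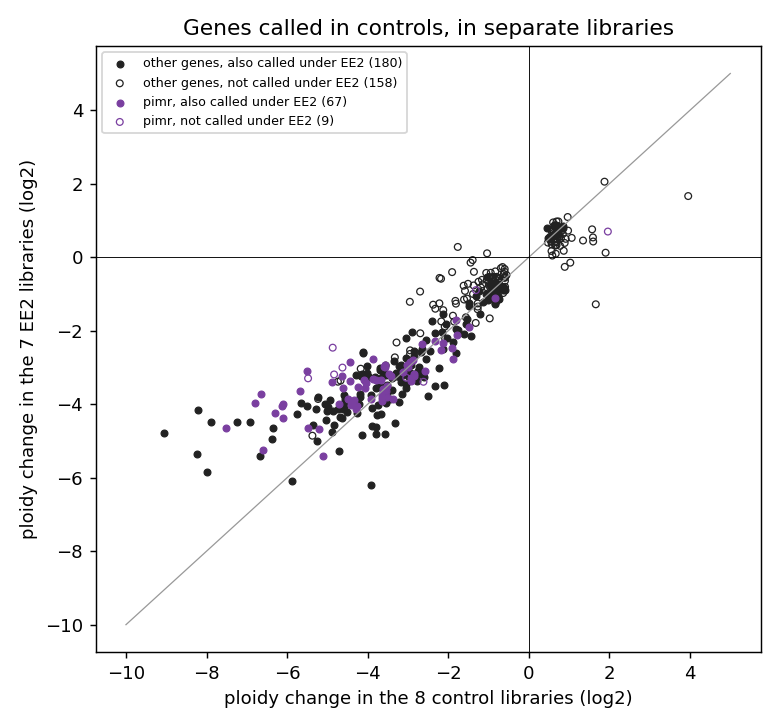
Log2 change with ploidy in the 7 EE2 libraries against that in the 8 control libraries for 414 genes called in the controls, with filled points also called under EE2 and the line of equal change in grey. Of all points, 409 have the same sign on both axes.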

How the data were processed

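RNA was sequenced from testis in 16 libraries, made strand-specific after ribosomal RNA depletion per the labels' protocols. The deposited table holds raw counts of read pairs per gene, which the authors made with featureCounts 2.0.6 on STAR alignments to GRCz11 with Ensembl 113, per the file headers. Reads with several alignments are left out by default there. The deposited table also gives exon lengths in other units than counts, namely bases. Names came from a RefSeq and Ensembl symbol table, with 29201 of 32520 genes named and 3648 human-style symbols given a zebrafish paralog letter by chromosome.

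Counts were tested in edgeR 4.0.16 (R 4.3.3) with filterByExpr, TMM factors and robust glmQLFit over 15 libraries, leaving out triploid EE2 replicate 2, which its title calls an outlier. P-values were adjusted by Benjamini-Hochberg over all 23007 genes. SE is the absolute log2 change over the square root of F. The median coefficient of biological variation was 20.4%. On simulated data, 63% of 2-fold and 92% of 4-fold changes were recovered with 1 false call among 22652 genes. The changed genes were drawn from those above 2 CPM in diploid controls, and no library was simulated to stand apart. Library measures used exact permutation tests.

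Of 1888 symbols in 40 gene lists, 1750 were matched. The members and lists were chosen with earlier results of these data known, and lists are described by counts and medians, without a test. Named genes were the 12 largest rises and 12 largest falls among called genes with a symbol, a mean log2 CPM of at least 1 and groups without overlap, outside pimr, tssk6 and amh; the 3 called members of smallest p in each list; 12 fixed genes and rn7sl1; and the 6 called genes of highest level. Other genes named were chosen after their values were seen. Alternatives were DESeq2 1.42.0, limma-voom (limma 3.58.1), RLE factors, other filters, other sets of libraries, a replicate block and omission of each control library. Some results are not reported here.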

Additional observations from a re-analysis of the deposited data

Results flagged for a closer look

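Among the named genes and library measures, 164 groups of 4 libraries were screened for a single library whose gap to the nearest other, on the log2 scale for genes, took more of the range than Dixon's 95% critical value for 4 allows, which chance gives in about 1 of 20 groups. In diploid control 1 this held for the cohesin gene stag1b (264 CPM against 305 to 309, gap 0.903 of the range), kif23 (118 CPM against 167 to 179, gap 0.830), rfng (70.08 CPM against 103 to 110, gap 0.870) and the androgen receptor ar (15.15 CPM against 22.8 to 24.4, gap 0.860). It was the lowest of its group in each. Diploid control 3 was the highest for actn1 (159 CPM against 81.5 to 90, gap 0.851). Triploid control 4 was the lowest for setx (583 CPM against 635 to 643, gap 0.879).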

How the results depend on the processing

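The count of 630 called genes was 1190 with DESeq2 (387 higher, 803 lower, so 67.5% lower against 79.0%), 503 with limma-voom, 612 with RLE factors (79.2% lower), 418 with only the 8 control libraries, 377 with all 16 libraries, 281 at an adjusted p under 0.01 and 352 with a change of at least 2-fold. It ranged from 350 to 740 when each control library was left out, and 308 of the 630 genes were called in all 8 omissions, 17 higher and 291 lower. Without diploid control replicate 1 there were 639 calls, of which 486 were among the 630. The block on the replicate number gave 476 (77 higher, 399 lower). Same-numbered libraries did not deviate together (r from -0.0789 to 0.0364, against -0.0627 to 0.148 for other pairs), so the numbers were not read as pairing. Under the block 22 named genes lost their call, against 36 with only the 8 control libraries and 31 with all 16. The 247 calls shared with the EE2 libraries, of 414 tested there, ranged from 202 to 315 over omissions. The 202 were of 252 tested, without triploid control 1, and the 315 of 868 tested, without diploid control 1. The control libraries fitted alone called 877 genes without diploid control 1, in place of 418. Over omissions, insl3 ranged from -0.73 to 0.18, the difference in read pairs from -948344 to 1151469, and that in genes detected from -710.2 to 162.8. With a gap of 50 kb there were 13 stretches of lower genes, with 48 genes, in place of 19. Of the 66 called named genes, 27 kept their call in every omission. At 7659779 to 13959219 read pairs a library, genes below 1 CPM were close to the counting floor. Of simulated 2-fold changes, placed only in genes above 2 CPM in diploid controls, 63% were recovered.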
